A study of Mus musculus with 50 samples.

Results

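Mediator is the large protein complex that carries signals from DNA-bound activators to RNA polymerase II. The mRNAs of its 32 mouse subunit genes were followed in single mouse oocytes with and without a conditional knockout of Zfp36l2. The genes are the complex's subunits, listed by name, and all 32 were found among the 16614 rows of the count table and passed the filter on low counts. They comprised 7 genes of the head, 9 of the middle, 9 of the tail, the scaffold subunit Med14 and 6 of the kinase module, where Med13 and Med13l, and Cdk8 and Cdk19, are paralogues that fill the same position. The study's 50 libraries were single germinal vesicle oocytes, arrested in meiotic prophase, from 5-week-old females primed with PMSG (10 IU, a hormone that makes follicles grow) 46 hours before collection into medium with 5 μM milrinone, which holds meiotic arrest. Only oocytes fully surrounded by cumulus cells were taken, and these cells and the zona were then removed. The 26 floxed oocytes (F/F-, the controls) were taken from 4 mice (5, 7, 7 and 7 each). The 24 knockout oocytes (cKO-Zfp36l2) were taken from another 4 (1, 7, 8 and 8 each). The labels name neither the Cre that drove the deletion nor the strain, and do not say whether controls carried Cre.

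As background, the head and middle modules form the core that contacts RNA polymerase II, MED14 runs through the complex as its backbone, and the tail is the main landing site for activators. The kinase module binds core Mediator reversibly. In it CDK8 or CDK19, with cyclin C and MED12, is the only enzymatic part of the complex, and MED13 or MED13L links the module to the core, which then cannot hold the polymerase at the same time. The growing oocyte transcribes and stores mRNA, and transcription is shut down when it is fully grown. ZFP36L2 is an RNA-binding protein of the tristetraprolin family that binds AU-rich elements, with the core heptamer UAUUUAU, in the 3′ part of mRNAs and speeds the decay of those it binds.

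Matches of that heptamer, written TATTTAT in the DNA alphabet, were counted on the transcript strand of each gene's longest annotated 3′ untranslated region. The kinase module held most of them. Of its 6 genes 4 had a match, with 7 matches in all, against 1 of 7 head genes (Med18), 1 of 9 middle genes (Med1), 2 of 9 tail genes (Med28 and Med30) and none in Med14. Its regions were also longer, with a median of 2528.5 bases against 994 in the head, 926 in the middle and 636 in the tail (Med14 2209). A match was found in 3 of 5 members called higher in knockout oocytes, 0 of 5 called lower and 5 of 22 not called. Median region lengths of these sets were 2605, 488 and 1013 bases. The part of region length in these counts was not tested. Med26 and Med24, which were called higher, have no match. Only the sites of the kinase module and of Med1 are printed, a choice made after the fold changes were seen. Those of Med18, Med28 and Med30, which were not called, are left out. Capitals mark the heptamer, and 10 bases are shown on each side, 5′ to 3′ on the transcript strand.
Med13 site 1: ctgcatctctTATTTATtgtaagtttt
Med13 site 2: ttgactttttTATTTATtgaattttct
Med13l site 1: gcattctgttTATTTATttttcatttt
Med13l site 2: gctggtgacaTATTTATacgtttttgt
Cdk19 site 1: attatgttttTATTTATctctttcagg
Cdk19 site 2: gagacaagtcTATTTATtctgtgcttt
Med12: ttttgtatatTATTTATatagagatcc
Med1: ttattttagtTATTTATttgtaatatt

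All are in 3′ untranslated exon sequence (mm10, GENCODE M21). The Med13 sites lie on the minus strand at chr11:86270547-86270573 and chr11:86269564-86269590, bases 423 and 1406 of a 3953-base region. Those of Med13l lie on the plus strand at chr5:118763382-118763408 and chr5:118764782-118764808, and those of Cdk19 on the plus strand at chr10:40480311-40480337 and chr10:40482854-40482880. The Med12 site is on the plus strand at chrX:101297396-101297422, in a region of 235 bases, and the Med1 site on the minus strand at chr11:98154672-98154698. The share of genes with a match rose with the length of the region. Among 13803 tested genes with an annotated region, 27.7% had a match, against 8 of the 32 members (25.0%). With regions of 2000 bases or more the share was 54.9% of 3609 genes, and 5 of 8 members. In that length class 17.5% of genes with a match and 17.6% of genes without were called higher in knockout oocytes. In each shorter length class, genes with a match were called higher more often than genes without. Over all lengths, 17.0% of genes with a match and 13.9% of genes without were called higher, and 11.9% and 13.6% lower. Genes with a match were called lower less often in every length class. These differences were not tested. A match is a string of letters, and binding was not measured.

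Mice served as replicates: the oocyte counts of each mouse were added up, and 4 knockout sums were compared with 4 floxed sums. Totals ran from 1746007 to 6233840 counts per oocyte (median 5004426.5) and from 4332108 counts in knockout mouse 1, which has a single oocyte, to 44498770 in knockout mouse 3. No knockout oocyte held fewer than 4332108 counts, so the oocytes with the lowest totals were all floxed. The labels do not say whether mice were handled in batches. Levels are given as CPM, a gene's counts scaled to the same library total in every sample, and compared between genes only per kilobase of transcript. The deposited counts rose less than in proportion to depth for the most densely covered genes: regressed on log2 total over floxed oocytes, log2 count had a median slope of 1.03 at 0.2 to 0.4 mean counts per base of transcript, 0.767 at 0.4 to 0.8 (5 members) and 0.51 above (1 member, Med10). At 0.05 to 0.2, the class of 12 members that include Med13, Med13l, Med1 and Med24, the slope was 1.25, and below it 1.1. Zfp36l2 itself was low in both genotypes, at 3.27 ± 0.934 CPM (floxed) against 2.00 ± 0.806 CPM (knockout) (edgeR adjusted p = 0.208). The row counts the whole gene and does not check the labels. Of the markers of granulosa and cumulus cells, 10 of 13 had a row, with a summed level of 140.4 to 209 CPM (floxed) against 142 to 222 CPM (knockout). The highest of them were Cyp19a1, at 82.8 ± 19.5 CPM (floxed) against 78.8 ± 11.8 CPM (knockout), and Nr5a2, at 49.9 ± 8.23 against 44.1 ± 1.36 CPM. None of the 10 was at 0 in all mice, and 1 of 9 tested (Cyp11a1) was called, lower, at 3.88 ± 2.07 CPM (floxed) against 0.034 ± 0.067 CPM (knockout). Oocyte markers summed to 4982 to 6166 CPM (floxed) against 5226 to 5775 CPM (knockout), and 3 of 13 were called: Figla (1.63-fold) and Ddx4 (1.91-fold) higher and Mos (1.25-fold) lower. Of 7 markers of stroma, vessels and blood, Dcn and Pecam1 had a row, with a summed level of 95.2 to 176 CPM (floxed) against 21.4 to 36.2 CPM (knockout). Nearly all of that sum was Pecam1, which was called lower, at 150 ± 39.9 CPM (floxed) against 27.0 ± 8.08 CPM (knockout), 5.79-fold. Dcn was at 2.39 ± 1.16 against 0.85 ± 1.24 CPM and was not called. Their part in the results was not tested. Oocytes of a mouse share their source, and p-values measure the spread between these 8 mice. 

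Of the 32 Mediator genes, 5 rose and 5 fell in knockout oocytes and 22 did not pass (edgeR quasi-likelihood test on mouse sums, Benjamini-Hochberg adjusted p under 0.05 over 15029 genes). Together 31.2% of the members were called, beside 27.6% of all genes (14.4% higher and 13.2% lower), so the members' share lies near the background. The genes that rose were Med13 and Med13l of the kinase module, Med1 and Med26 of the middle and Med24 of the tail. Those that fell were Med6, Med8 and Med11 of the head and Med7 and Med31 of the middle. The median log2 fold change was 0.67 over the 6 kinase-module genes, −0.026 in the head, −0.14 in the middle and 0.11 in the tail, beside −0.0059 over all tested genes. In the kinase module only 2 of 6 genes were called. Its median also rests on the uncalled Cdk19 (0.96) and Med12 (0.59), and Med12 had 0.26 without knockout mouse 1. Cdk8 (−0.13) and Ccnc (−0.23) were negative. Most changes were small: 8 of the 10 called members changed less than 1.5-fold, as did 21.5% of all called genes, and 1 member (Med13) changed at least 2-fold, as did 56.5% of called genes. The groups of mice did not overlap for 8 members, 3 with knockout above and 5 below, and for 31.0% of all tested genes (16.0% above, 15.0% below). With MED27, MED28, MED29 and MED30 counted with the head, as some structural schemes have it, the head still had 3 lower and none higher and the tail 1 higher and none lower.

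**Figure D1:**
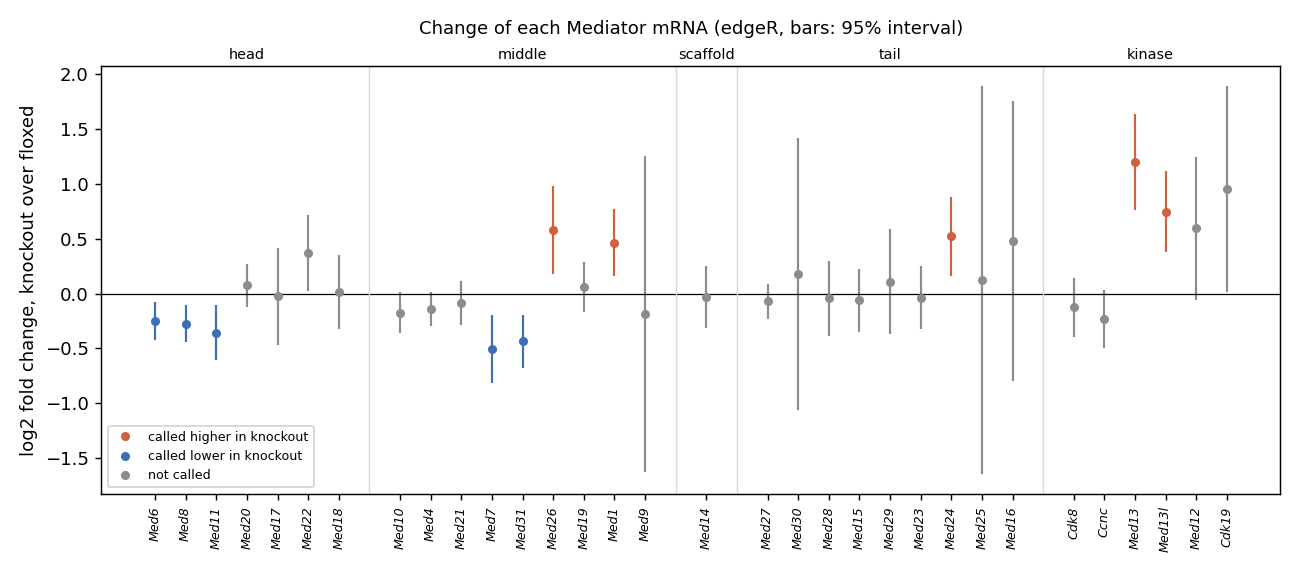
Log2 fold change of each Mediator gene (knockout over floxed mice, 4 each, edgeR) with its 95% interval, by module and, within a module, from the highest to the lowest level per kilobase in floxed mice; colours mark the 5 genes called higher, the 5 called lower and the 22 not called. Med13 is highest at 1.198, and the widest intervals belong to Med25, Med9, Med16 and Med30.

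Within the kinase module the linker subunits rose. Med13 (chromosome 11, 86267033 to 86357602, minus strand), which joins the module to core Mediator, had 86.0, 76.9, 129 and 123 CPM in floxed mice 1 to 4 and 189, 267, 284 and 239 CPM in knockout mice 1 to 4. Every knockout mouse lay above every floxed mouse. The level went from 104 ± 26.05 to 245 ± 41.4 CPM on average (SD, n = 4 mice each), a 2.29-fold rise (log2 fold change 1.198, SE 0.19, adjusted p = 0.00251). It ranged from 23.5 to 163 CPM (median 101) in single floxed oocytes and from 167 to 340.2 CPM (median 264) in single knockout oocytes, so that the lowest of the 24 knockout oocytes exceeded the highest of the 26 floxed oocytes. Knockout mouse 1, the single oocyte, was the lowest of the knockout mice.

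Its paralogue Med13l (chromosome 5, 118560679 to 118765438, plus strand) had 65.3, 84.1, 100.2 and 99.6 CPM in floxed mice 1 to 4 and 175, 152, 148 and 128 CPM in knockout mice 1 to 4. The knockout mice again all lay above the floxed mice, this time with the single-oocyte mouse on top. The level rose 1.68-fold, from 87.3 ± 16.5 to 151 ± 19.4 CPM on average (log2 fold change 0.75, SE 0.16, adjusted p = 0.00968). Single oocytes overlapped for Med13l: it ranged from 48.0 to 124 CPM (median 90.2) in single floxed oocytes and from 111 to 189 CPM (median 138) in single knockout oocytes, and all 24 knockout oocytes were above the floxed median. Both rises kept their direction and passed the threshold in each of 16 alternative analyses, among them leaving out any mouse. The largest adjusted p without a mouse was 0.00949 for Med13 and 0.0339 for Med13l. Med13 shares 800 exon bases with Brip1os on the other strand, and the library kit does not mark strand; the Brip1os row held 6.02 ± 1.66 CPM (floxed) against 8.06 ± 1.19 CPM (knockout).

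Per kilobase, the paralogues stood close together in floxed mice, at 9.83 ± 2.47 CPM per kilobase for Med13 and 9.39 ± 1.77 for Med13l. In knockout mice they were at 23.2 ± 3.92 and 16.2 ± 2.09. The ratio of Med13 to Med13l per kilobase was 1.16, 0.806, 1.13 and 1.09 in floxed mice 1 to 4 and 0.950, 1.55, 1.69 and 1.65 in knockout mice 1 to 4. Knockout mice 2 to 4 had the highest ratios, while knockout mouse 1 lay within the floxed range. The mean log2 ratio of the counts was 0.23 ± 0.25 in floxed and 0.69 ± 0.39 in knockout mice, a difference of 0.45 that did not pass an exact two-sided permutation test (70 arrangements, p = 0.114, adjusted p = 0.2 over 2 ratios), for which the smallest possible p is 0.0286. Without knockout mouse 1 the difference was 0.65 (exact permutation p = 0.0571, the smallest that 4 against 3 mice allow). Med13 made up a median of 51.4% of both per length in floxed oocytes (23.6% to 61.0%) and 61.8% in knockout oocytes (48.7% to 69.3%).

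**Figure D2:**
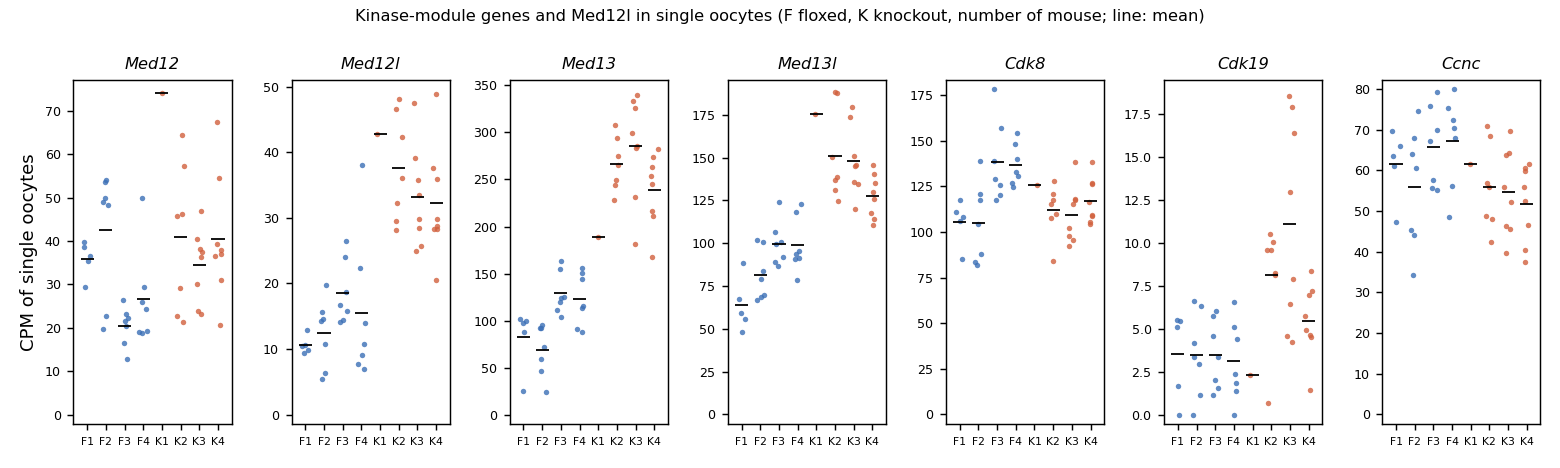
CPM in each single oocyte of the 6 kinase-module genes and of Med12l, by mouse (F1 to F4 floxed, blue; K1 to K4 knockout, orange; black lines are means of a mouse's oocytes). For Med13 the lowest knockout oocyte, at 167 CPM, lies above the highest floxed oocyte, at 163 CPM, whereas Cdk8 and Ccnc overlap.

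Cdk8, the more abundant of the module's kinases, did not pass the test. It had 107, 111, 139 and 137 CPM in floxed mice 1 to 4 and 126, 112, 110.2 and 117 CPM in knockout mice 1 to 4. All knockout mice lay within the floxed range. The means were 123 ± 16.6 CPM (floxed) against 116 ± 6.89 CPM (knockout) (log2 fold change −0.13, SE 0.12, adjusted p = 0.471, 95% interval −0.39 to 0.14), and Cdk8 ranged from 82.0 to 179 CPM (median 123) in single floxed oocytes and from 84.1 to 139 CPM (median 115) in single knockout oocytes. A stretch of 717 bases of the Cdk8 transcript is 98.3% identical to the gene model Gm7107, and the labels do not say how reads shared between copies were counted.

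Its paralogue Cdk19 was near the floor of detection. It had 3.76, 3.27, 3.49 and 3.16 CPM in floxed mice 1 to 4 and 2.31, 8.21, 10.8 and 5.46 CPM in knockout mice 1 to 4. Knockout mice 2 to 4 lay above all floxed mice and knockout mouse 1 below them. The means were 3.42 ± 0.264 CPM (floxed) against 6.69 ± 3.64 CPM (knockout) (log2 fold change 0.96, SE 0.42, adjusted p = 0.119, 95% interval 0.016 to 1.90), and without knockout mouse 1 the gene was called higher (log2 fold change 1.17, adjusted p = 0.0142). A count was seen in 23 of 26 floxed and 24 of 24 knockout oocytes, the same numbers after all oocytes were thinned to 1500000 counts, and the level ranged from 0 to 6.60 CPM (median 3.35) in single floxed oocytes and from 0.676 to 18.6 CPM (median 7.57) in single knockout oocytes. Per kilobase Cdk8 exceeded Cdk19 55.4-, 66.5-, 77.4- and 84.4-fold in floxed mice 1 to 4, against 106-, 26.7-, 19.96- and 41.8-fold in knockout mice 1 to 4. The mean log2 ratio of the counts was 5.16 ± 0.27 in floxed and 4.33 ± 1.05 in knockout mice, a difference that did not pass (−0.84, exact two-sided permutation p = 0.2, adjusted p = 0.2). Without knockout mouse 1 the difference was −1.32 (exact permutation p = 0.0571, the smallest that 4 against 3 mice allow, so this test could not pass). Cdk8 was at least 90.7% of the pair per length in every oocyte of both genotypes.

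**Figure D3:**
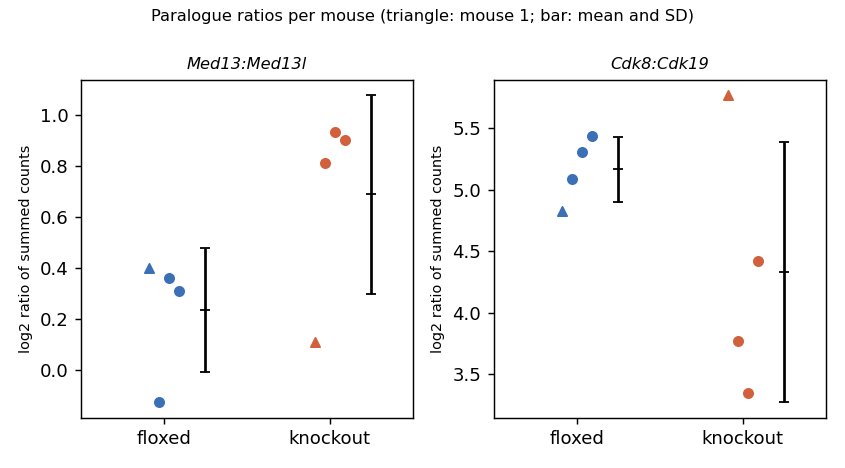
Log2 ratio of summed counts of Med13 to Med13l (left) and Cdk8 to Cdk19 (right) in each mouse; triangles are mouse 1 of each genotype, and bars beside the points give the mean and SD of the 4 mice. For both pairs knockout mouse 1 lies on the other side of the floxed mean from knockout mice 2 to 4.

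Med12, the X-linked subunit that activates the kinase, and Ccnc, its cyclin, did not pass. Med12 had 35.8, 40.0, 20.3 and 27.3 CPM in floxed mice 1 to 4 and 74.1, 41.5, 34.9 and 41.3 CPM in knockout mice 1 to 4. Knockout mouse 3 lay within the floxed range, knockout mice 2 and 4 just above it and knockout mouse 1 far above it. The means were 30.8 ± 8.79 CPM (floxed) against 47.9 ± 17.7 CPM (knockout) (log2 fold change 0.59, SE 0.29, adjusted p = 0.156, 95% interval −0.055 to 1.24). Without knockout mouse 1 the log2 fold change of Med12 was 0.26 (adjusted p = 0.448). Its single oocytes ranged from 12.8 to 54.1 CPM (median 26.2) in floxed and from 20.5 to 74.1 CPM (median 37.7) in knockout oocytes. Ccnc had 62.5, 59.9, 65.8 and 66.6 CPM in floxed mice 1 to 4 and 61.6, 55.7, 54.4 and 51.3 CPM in knockout mice 1 to 4. Knockout mice 2 to 4 lay below all floxed mice, and knockout mouse 1 lay among them. The means were 63.7 ± 3.08 CPM (floxed) against 55.8 ± 4.33 CPM (knockout) (log2 fold change −0.23, SE 0.12, adjusted p = 0.169), and without knockout mouse 1 Ccnc was called lower (log2 fold change −0.33, adjusted p = 0.0394). Single oocytes ranged from 34.4 to 80.0 CPM (median 65.0) in floxed and from 37.4 to 70.9 CPM (median 55.9) in knockout oocytes.

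Med12l, the paralogue of Med12, is not among the 32 genes but belongs to the list of related genes. It had 10.7, 12.2, 18.6 and 16.1 CPM in floxed mice 1 to 4 and 42.7, 37.5, 33.3 and 32.6 CPM in knockout mice 1 to 4. All knockout mice lay above all floxed mice. It rose 2.45-fold, from 14.4 ± 3.64 to 36.5 ± 4.66 CPM on average (log2 fold change 1.29, SE 0.23, adjusted p = 0.00347), and was called higher in each of 16 alternative analyses. Per kilobase it remained below Med12, at 1.31 CPM against 4.53 in floxed mice and 3.32 CPM against 7.04 in knockout mice. Its 3933-base annotated 3′ untranslated region holds 3 matches of TATTTAT. Added up per kilobase, the 6 kinase-module genes came to 84.1 ± 9.23 in floxed and 103 ± 4.35 in knockout mice, from 74.9 to 92.0 in floxed and from 97.4 to 108 in knockout mice. The largest rises within this sum were those of Med13 (9.83 to 23.2) and Med13l (9.39 to 16.2), both called. Cdk8 (41.5 to 39.1) and Ccnc (18.3 to 16.0) were lower in knockout mice. The sum was not tested.

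In the head, 3 of 7 genes fell, by 1.19- to 1.28-fold, and none rose, beside 13.2% lower and 14.4% higher over all genes. Whether a module differs from that background was not tested. MED6 sits where the head meets the middle, MED8 ties MED18 and MED20 to the head, and MED11 pairs with MED22. Med6 had 154, 165, 158 and 169.7 CPM in floxed mice 1 to 4 and 134, 145, 139.7 and 140.1 CPM in knockout mice 1 to 4. Med8 had 155, 159, 161 and 166 CPM in floxed mice 1 to 4 and 128, 137, 140.5 and 139.6 CPM in knockout mice 1 to 4. Med11 had 69.5, 70.2, 60.4 and 72.6 CPM in floxed mice 1 to 4 and 54.5, 52.2, 56.8 and 55.4 CPM in knockout mice 1 to 4. For each of them all knockout mice lay below all floxed mice. Med6 fell 1.19-fold (log2 fold change −0.25, SE 0.08, adjusted p = 0.0413), Med8 1.21-fold (log2 fold change −0.27, SE 0.08, adjusted p = 0.0248) and Med11 1.28-fold (log2 fold change −0.36, SE 0.11, adjusted p = 0.0419).

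These falls sat close to the threshold. Med6 did not pass without floxed mouse 2, 3 or 4 or knockout mouse 3 or 4 (adjusted p 0.0529 to 0.125). Med8 did not pass without floxed mouse 2, 3 or 4 (0.0552 to 0.0809 as adjusted p). Med11 did not pass without floxed mouse 2 or 4 or knockout mouse 2, 3 or 4 (adjusted p 0.0618 to 0.124). With oocytes thinned to equal totals and with limma neither Med6 nor Med11 passed, at log2 fold changes close to the full comparison: Med6 had log2 fold change −0.24, adjusted p = 0.0933 when thinned and log2 fold change −0.22, adjusted p = 0.0729 with limma, and Med11 log2 fold change −0.36, adjusted p = 0.0524 and log2 fold change −0.32, adjusted p = 0.0697. Over all genes, those at 0.4 to 0.8 mean counts per base, where Med6 and Med8 lie, were called lower in 20.02% and higher in 3.76% of cases, and those at 0.2 to 0.4, where Med11 lies, in 13.9% and 10.8%. Genes with transcripts under 1500 bases were called lower in 13.8% and higher in 9.81%. The part of coverage density in these falls was not tested. With a per-mouse offset for transcript length, added after the length of the called members had been seen, Med8 was called lower (adjusted p = 0.0388), while Med6 (log2 fold change −0.21, adjusted p = 0.134) and Med11 (log2 fold change −0.31, adjusted p = 0.0714) kept most of their fold change and were not called.

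The other head genes did not pass. Med18, the head gene with the lowest level per kilobase, had 62.5, 75.9, 60.2 and 58.1 CPM in floxed mice 1 to 4 and 52.6, 64.8, 69.6 and 79.0 CPM in knockout mice 1 to 4, with overlapping groups (log2 fold change 0.016, SE 0.15, adjusted p = 0.95). Med17, a central subunit of the head, Med20, the partner of MED18, and Med22 had log2 fold changes of −0.026, 0.075 and 0.37. Med22 had 146 ± 36.3 CPM (floxed) against 193 ± 20.4 CPM (knockout) (adjusted p = 0.104) and was called higher without floxed mouse 1 (log2 fold change 0.49, adjusted p = 0.0159). The summed level of the head per kilobase was 536 ± 20.1 in floxed and 506 ± 4.68 in knockout mice.

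The middle module changed in both directions, with 2 of 9 genes higher and 2 lower, beside 14.4% and 13.2% of all genes. Med1, the subunit bound by nuclear receptors, had 154, 189, 176 and 169.9 CPM in floxed mice 1 to 4 and 179, 256, 261 and 278 CPM in knockout mice 1 to 4. Knockout mice 2 to 4 lay well above the floxed mice, and knockout mouse 1 lay among them. The level went from 172 ± 14.8 to 244 ± 44.1 CPM on average (1.38-fold, log2 fold change 0.46, SE 0.14, adjusted p = 0.0314). Med26, which binds elongation factors and is found in Mediator without the kinase module, had 142, 93.0, 101 and 92.7 CPM in floxed mice 1 to 4 and 214, 167, 139 and 139.7 CPM in knockout mice 1 to 4. Within each genotype mouse 1 was the highest, and floxed mouse 1 exceeded knockout mice 3 and 4. The level went from 107 ± 23.6 to 165 ± 35.1 CPM on average (1.499-fold, log2 fold change 0.58, SE 0.18, adjusted p = 0.0374). All 24 knockout oocytes were above the floxed median for both genes. Med1 did not pass without floxed mouse 1, 3 or 4 or knockout mouse 2, 3 or 4 (adjusted p 0.0651 to 0.13), and Med26 lost its call when any mouse other than floxed mouse 1 was left out (adjusted p 0.0561 to 0.115).

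Med7 and Med31, which bind each other in the middle module, fell. Med7 had 206, 166, 149 and 157 CPM in floxed mice 1 to 4 and 153, 119, 110.1 and 109.8 CPM in knockout mice 1 to 4. Mouse 1 was the highest in each genotype, so that the groups overlapped by the pair of knockout mouse 1 and floxed mouse 3. The level went from 169.6 ± 25.0 to 123 ± 20.6 CPM on average, 1.42-fold lower (log2 fold change −0.50, SE 0.14, adjusted p = 0.0245). Med31 had 70.4, 71.3, 67.2 and 74.0 CPM in floxed mice 1 to 4 and 52.4, 53.3, 57.9 and 51.5 CPM in knockout mice 1 to 4. These groups did not overlap, and the level went from 70.7 ± 2.77 to 53.8 ± 2.83 CPM on average, 1.35-fold lower (log2 fold change −0.43, SE 0.11, adjusted p = 0.0158). Med7 did not pass without floxed mouse 2 or knockout mouse 2, 3 or 4 (adjusted p 0.0516 to 0.0573), and Med31 without floxed mouse 4 (adjusted p = 0.0563). Med31 shares 455 exon bases, Med7 609 and Med26 381 with opposite-strand gene models not analysed here, and their reads cannot be told apart without strand.

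Med10, a middle subunit with the highest level per kilobase of all members (178 CPM per kilobase in floxed mice), had 165, 171, 148 and 164 CPM in floxed mice 1 to 4 and 157, 149, 143 and 142 CPM in knockout mice 1 to 4. The groups overlapped and the gene did not pass (log2 fold change −0.17, SE 0.08, adjusted p = 0.15). Med9 was the lowest middle gene, at 13.4 CPM per kilobase, and had 59.2, 18.1, 13.0 and 12.7 CPM in floxed mice 1 to 4 and 54.0, 13.9, 12.9 and 12.8 CPM in knockout mice 1 to 4. Mouse 1 stood far above the others in both genotypes, and the means were 25.8 ± 22.4 CPM (floxed) against 23.4 ± 20.4 CPM (knockout) (log2 fold change −0.18, SE 0.64, adjusted p = 0.86). Med4, Med19 and Med21 had log2 fold changes of −0.14, 0.06 and −0.085. For Med4 all knockout mice lay below all floxed mice, at 198 ± 7.40 CPM (floxed) against 184 ± 3.23 CPM (knockout), without passing (adjusted p = 0.15). A stretch of 813 bases of Med4 is 96.4% identical to the gene model Gm9434. The middle summed per kilobase to 674 ± 37.0 in floxed and 640.5 ± 31.3 in knockout mice.

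The scaffold gene Med14, X-linked like Med12, had 149, 112, 143 and 125 CPM in floxed mice 1 to 4 and 155, 131, 136 and 111 CPM in knockout mice 1 to 4. The groups overlapped, at 132 ± 16.6 CPM (floxed) against 133 ± 18.01 CPM (knockout) (log2 fold change −0.028, SE 0.13, adjusted p = 0.896, 95% interval −0.31 to 0.26).

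In the tail, 1 of 9 genes rose and none fell, beside 14.4% and 13.2% of all genes. Med24, a structural tail subunit, had 62.6, 65.0, 57.9 and 64.3 CPM in floxed mice 1 to 4 and 65.3, 88.0, 114 and 101 CPM in knockout mice 1 to 4. All knockout mice lay above the floxed mice, knockout mouse 1 by the narrow margin between 65.3 and 65.0 CPM. The level went from 62.4 ± 3.20 to 92.0 ± 20.6 CPM on average (1.44-fold, log2 fold change 0.52, SE 0.16, adjusted p = 0.0369), and 23 of 24 knockout oocytes were above the floxed median. Med24 lost its call when any mouse other than knockout mouse 1 was left out (adjusted p 0.0755 to 0.16). It also missed the threshold with oocytes thinned to equal totals (log2 fold change 0.42, adjusted p = 0.113) and with the length offset (log2 fold change 0.45, adjusted p = 0.0541).

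Med27, a subunit at the border of tail and head and the tail gene with the highest level per kilobase (141 CPM per kilobase in floxed mice), had 256, 246, 216 and 233 CPM in floxed mice 1 to 4 and 231, 232, 233 and 232 CPM in knockout mice 1 to 4. The knockout mice were nearly equal and lay within the floxed range (log2 fold change −0.071, SE 0.07, adjusted p = 0.487). Med16 was the lowest tail gene, at 1.71 CPM per kilobase, with 9.42, 5.63, 3.94 and 2.91 CPM in floxed mice 1 to 4 and 18.2, 4.12, 5.46 and 4.28 CPM in knockout mice 1 to 4 (log2 fold change 0.48, SE 0.57, adjusted p = 0.571). Med15, bound by SREBP and SMAD activators, was at 164 ± 29.5 CPM (floxed) against 162 ± 13.8 CPM (knockout), and Med23, bound by ELK1, at 161 ± 23.6 CPM (floxed) against 162 ± 15.1 CPM (knockout). Their 95% intervals of the log2 fold change were −0.35 to 0.23 and −0.32 to 0.25. Med28, Med29, Med30 and Med25 had log2 fold changes of −0.043, 0.11, 0.18 and 0.12, with standard errors of up to 0.79 (Med25). The tail summed per kilobase to 410.5 ± 98.6 in floxed and 432 ± 71.9 in knockout mice. With MED27 to MED30 counted with the head, these sums were 116 ± 20.9 and 126 ± 16.0.

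**Figure D4:**
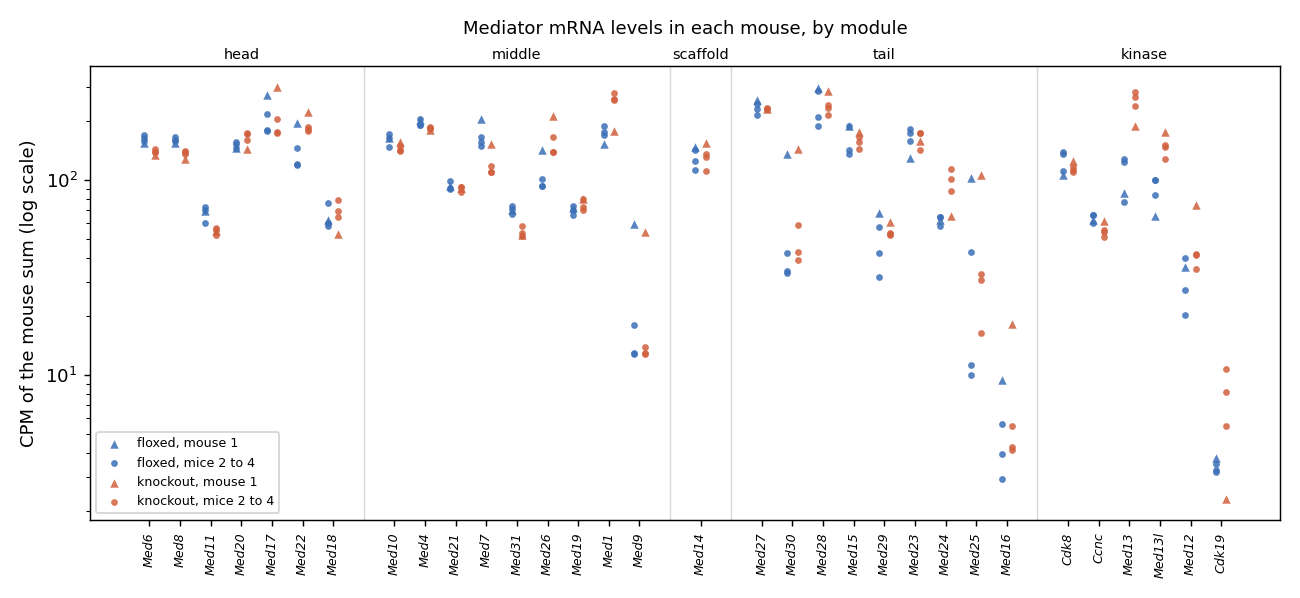
CPM of every Mediator gene in each mouse on a log axis, by module and, within a module, from the highest to the lowest level per kilobase in floxed mice; triangles are mouse 1 of each genotype and circles mice 2 to 4. Med30, Med25, Med16 and Med9 have mouse 1 above the other mice in both genotypes, while Med13 and Med13l separate the genotypes.

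For 4 members mouse 1 stood apart in both genotypes. Med9, Med16, Med25 and Med30 were at least 2-fold higher in mouse 1 than in the mean of mice 2 to 4, in both genotypes. Med25, a tail subunit bound by ETV and other activators, had 103, 43.0, 11.2 and 9.98 CPM in floxed mice 1 to 4 and 106, 32.9, 16.4 and 30.8 CPM in knockout mice 1 to 4. Floxed mouse 1 exceeded the mean of the other floxed mice 4.80-fold, and knockout mouse 1 that of the other knockout mice 3.97-fold. Med30, at the border of head and tail, had 136, 42.3, 34.1 and 33.5 CPM in floxed mice 1 to 4 and 145, 58.9, 42.7 and 39.1 CPM in knockout mice 1 to 4. For Med9 the excess was 4.05-fold and 4.09-fold, for Med30 3.71-fold and 3.08-fold, and for Med16 2.26-fold and 3.95-fold.

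The 5 oocytes of floxed mouse 1 moved together. For Med30 they ranged from 119 to 151 CPM, above all 21 other floxed oocytes (24.0 to 59.5 CPM), and the knockout mouse 1 oocyte held 145 CPM against 29.2 to 89.0 CPM in the other 23. For Med9 they ranged from 49.4 to 83.1 CPM, with at most 31.3 CPM in the other floxed oocytes. For Med25 the 5 oocytes were above 68.6 CPM, the highest of the other floxed oocytes, whereas those of Med16 overlapped the rest. Single oocytes of mouse 2 were raised as well. Oocyte 8 of knockout mouse 2 was the highest of the other 23 for Med9 (31.8 CPM), Med16 (13.1), Med25 (89.0) and Med30 (89.0). Oocyte 1 of floxed mouse 2 held the highest other floxed values of Med25 (68.6 CPM) and Med30 (59.5). Differences between single oocytes were not tested. In all, 24 of the 32 members (75.0%) deviated in the same direction in mouse 1 of both genotypes, as did 67.8% of the 15029 tested genes, and 4 of 32 (12.5%) were at least 2-fold higher there in both, as were 5.2% of tested genes. A batch effect and a difference between animals cannot be told apart, since the labels do not say how mice were grouped. Without mouse 1 of both genotypes 7 members were called higher and 8 lower, where 20.8% and 23.1% of all genes were (43.9% in all). Those not called in the full comparison were Cdk19 and Med22 (higher) and Cdk8, Ccnc and Med10 (lower).

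**Figure D5:**
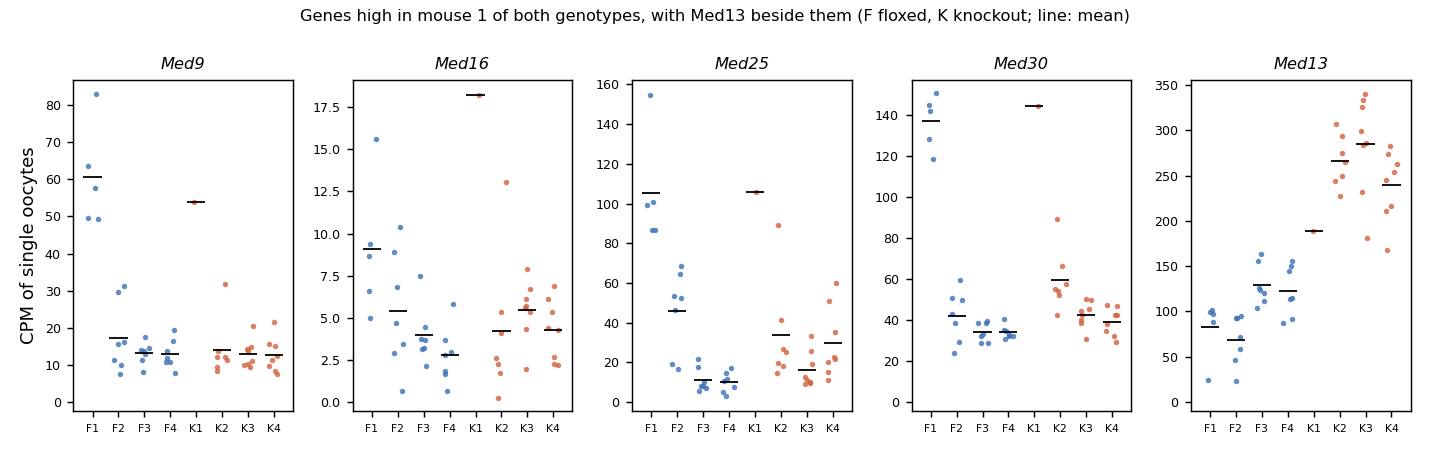
CPM in each single oocyte of Med9, Med16, Med25 and Med30, with Med13 for comparison, by mouse (F1 to F4 floxed, blue; K1 to K4 knockout, orange; black lines are means of a mouse's oocytes). For Med30 the 5 oocytes of F1 and the oocyte of K1 lie at 119 CPM or more and all others at 89.0 CPM or less, while for Med13 the genotypes separate.

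Levels per kilobase differed between modules in floxed mice. The medians were 73.3 CPM per kilobase in the head, 60.9 in the middle, 38.8 in the tail, 19.0 for Med14 and 9.61 in the kinase module. The order depended on the assignment of genes: with MED27 to MED30 counted with the head, the medians were 61.0 in the head and 18.3 in the tail. Kinase-module transcripts were also longer, with a median of 6308 bases against 1743 in the head. Over all tested genes the median level per kilobase fell from 14.6 under 1500 bases to 5.09 at 6000 bases or more, and over members from 95.2 to 9.83 in the same classes. The extremes were Med10, with its overlap with Gm26819, and Cdk19 (0.589 CPM per kilobase). Within the module the order was Cdk8, Ccnc, Med13, Med13l, Med12 and Cdk19, and Med13 and Med13l did not differ beyond their spread.

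Spread from oocyte to oocyte differed between Mediator genes. The spread within mice, as an SD of log2(CPM + 1) averaged over the 7 mice with several oocytes, had a median of 0.21 over the members, beside 0.30 over the 9704 genes that averaged at least 10 CPM. It was lowest for Med4 (0.10), Med6 and Med8 (0.11 each) and highest for Cdk19 (0.90), Med25 (0.70) and Med16 (0.67), of which Cdk19 and Med16 had few counts. By module the median was 0.14 in the head, 0.18 in the middle, 0.24 in the tail and 0.34 in the kinase module. With MED27 to MED30 counted with the head it was 0.16 in the head and 0.32 in the tail. The members were not matched for level with the other genes, and modules differed in level per kilobase. Med4, Med6 and Med8 lie at 0.4 to 0.8 mean counts per base, where log2 count rose with log2 total at a slope of 0.767. The part of level and coverage in these spreads was not tested. Med13 varied more within floxed mice (0.54) than within knockout mice (0.24), a difference that was not tested. Its lowest floxed values (23.5, 24.7, 45.9 and 58.9 CPM) came from oocytes with 1746007, 2997631, 3031069 and 1901439 counts, the lowest totals of all oocytes. The lowest total of a knockout oocyte was 4332108. The part of depth in this difference was not tested. Every member except Cdk19 had a count in all 50 oocytes.

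Genes that work with Mediator were taken as a list of 53, of which 51 had a row and were tested. Of these 7 rose and 5 fell (23.5% called, beside 27.6% of all genes), and the list's median log2 fold change was −0.0089. None of the 12 RNA polymerase II subunits tested and none of the 3 subunits of the TFIIH kinase was called. Neither were the 4 genes of cohesin and its loader. Among 13 elongation partners 3 rose and 1 fell. Ell3, a polymerase elongation factor, rose from 79.1 ± 10.8 to 139.6 ± 13.6 CPM on average (log2 fold change 0.78, SE 0.12, adjusted p = 0.00218). Ell2, its relative, rose from 24.7 ± 10.0 to 56.0 ± 10.1 CPM on average (adjusted p = 0.0124). Aff1, a scaffold of the super elongation complex, rose from 108 ± 9.30 to 153 ± 17.0 CPM on average (adjusted p = 0.0121). Mllt3, named after its values were seen, fell 1.33-fold, from 402 ± 45.4 to 310 ± 21.3 CPM on average (adjusted p = 0.0179). Among 18 activators known to contact a Mediator subunit 3 rose and 4 fell. Etv1, of the ETV factors that bind MED25, fell 4.13-fold, to 17.4 ± 8.61 CPM against 71.1 ± 5.61 CPM in controls (log2 fold change −2.05, SE 0.33, adjusted p = 0.00249). The nuclear receptors Pparg and Esr1, partners of MED1, fell from 146 ± 23.8 to 76.2 ± 22.1 CPM on average (adjusted p = 0.00939) and from 146 ± 36.2 to 77.7 ± 17.7 CPM on average (adjusted p = 0.0117). Other members of these families rose, and are named after their values were seen: Etv5 2.51-fold, from 6.65 ± 2.50 to 17.0 ± 3.61 CPM (adjusted p = 0.0162), and the nuclear receptor Thra 1.66-fold, from 23.2 ± 3.84 to 39.6 ± 5.94 CPM (adjusted p = 0.0189). Smad3, a partner of MED15, rose 1.38-fold, from 227 ± 31.96 to 321 ± 17.0 CPM on average (adjusted p = 0.0136).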

How the data were processed

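cDNA of single oocytes came from a SMARTer low-input kit, per the labels' protocols; such libraries carry no strand. The authors deposited 1 table of whole-number counts per gene and oocyte. Reads were aligned with STAR to mm10, per the submitters' processing notes. Versions, the counter and the treatment of duplicate or shared reads were not stated there. Of counts from 1 to 20, 61.5% were even and the highest count was 8354. Oocyte totals ran from 1746007 to 6233840, and no pair of oocytes of a mouse had near-identical counts (chi-square per degree of freedom 5.39 to 28.25 over 150 pairs, against counting error of amplified reads only).

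Groups and mouse numbers came from the sample titles. Counts were summed per mouse and tested with edgeR 4.0.16 (R 4.3.3, TMM, filterByExpr with a minimum count of 10, robust quasi-likelihood), with Benjamini-Hochberg adjustment over 15029 genes at 0.05. Alternatives used DESeq2 1.42.0, limma 3.58.1 on mean log2(CPM + 1), other scaling, no filter, thinning to 1500000 counts per oocyte, the mouse number as a block, and leaving out mice. The code was tested on simulated data. Transcript lengths, 3′ untranslated regions and sites are from GENCODE M21; near copies were searched with BLAST 2.17.0. Paralogue ratios were tested by exact permutation. Per-mouse values are given for called members, all kinase-module members and, in the other modules, the members highest and lowest per kilobase in floxed mice; up to 8 called related genes with the smallest p are named. Med12l, Med25, Med30, Med22 and Med4 were described further after their values were seen. Of the related genes, Mllt3, Notch1, Etv5, Thra and the uncalled members of their families were added in the same way. The members and lists were chosen with earlier results of these data known.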

Additional observations from a re-analysis of the deposited data

Results flagged for a closer look

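Among the 64 groups of 4 mice (32 genes in both genotypes), 6 had a mouse whose gap to the nearest other mouse exceeded Dixon's 95% critical share of the group's range, which chance gives in about 1 in 20 groups. All were mouse 1, 3 times in floxed and 3 times in knockout mice. Med9 stood at 59.2 CPM in floxed mouse 1, with the others at 12.7 to 18.1, and at 54.0 CPM in knockout mouse 1, with the others at 12.8 to 13.9. Med30 stood at 136 CPM in floxed mouse 1 against 33.5 to 42.3 CPM. Med26 stood at 142 CPM in floxed mouse 1 against 92.7 to 101 CPM. Med16 stood at 18.2 CPM in knockout mouse 1 against 4.12 to 5.46 CPM, and Med12 at 74.1 CPM against 34.9 to 41.5 CPM. Knockout mouse 1 is a single oocyte.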

How the results depend on the processing

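Med13 and Med13l were called higher in each of the 16 alternatives. Leaving out 1 mouse gave 1359 to 2538 genes higher and 1219 to 2822 lower, with 2 to 5 members higher and 1 to 6 lower. Members called lower numbered 3 with thinned oocytes, with limma and with the length offset, an alternative chosen after seeing the data, and 8 without mouse 1 of both genotypes, where 3549 genes were lower and 3182 higher. With the mouse number as a replicate block, 7 members were higher (Med12 and Med22 added) and 5 lower, and 2876 genes were higher and 2947 lower. Same-numbered mice correlated at 0.316, −0.0038, 0.248 and 0.18 in their deviations, and mice with different numbers at −0.287 to 0.191. The main fit did not pair mice by number, because the labels do not say that the numbers pair them. Whether same-numbered mice share a source was not tested.

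Uncalled members that changed sign were Med19 without mouse 1 of both genotypes (−0.0094), Med14 thinned (0.027) and with limma (0.049), and Med23 with limma (0.017), all as log2 fold changes. Leaving out 1 mouse moved Med17 from −0.28 to 0.051, Med18 from −0.13 to 0.11, Med9 from −1.04 to 0.54, Med19 from −0.016 to 0.084, Med14 from −0.15 to 0.0096, Med15 from −0.16 to 0.021, Med16 from −0.33 to 0.79, Med23 from −0.17 to 0.037, Med25 from −0.73 to 0.98, Med28 from −0.18 to 0.042, Med29 from −0.057 to 0.23 and Med30 from −0.47 to 0.84. The cause was not tested. Knockout mouse 1 has a single oocyte, and low counts limit Cdk19 and Med16.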
